A study of Mus musculus with 3 samples.

Results

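The matrix proteases and their inhibitors are described here as 54 of 17992 counted mouse genes. Members were chosen by symbol alone: every counted gene whose name is Adam, Adamts, Adamtsl, Mmp or Timp followed by a number. They comprised 15 Adam, 18 Adamts, 5 Adamtsl, 12 Mmp and 4 Timp genes. The study sequenced brain RNA of adult wild-type C57BL/6 mice in 3 libraries, with 1 library per group. The sham library came from an operated control group, and the Vehicle library from the group with occlusion of the middle cerebral artery. The AGNHW library came from mice given AGNHW at 3 mg per g per day. The labels do not state occlusion for the AGNHW group, and they give no brain region, time after surgery or number of mice per library.

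Matrix metalloproteinases (MMPs) and ADAMTS enzymes are zinc proteases that cut collagens, laminins and the proteoglycans of the extracellular matrix. ADAM proteins sit in the cell membrane, where the active ones release the outer part of receptors, adhesion molecules and growth factors. TIMPs block these enzymes by occupying the active site, and in the ischaemic brain Mmp9 and its inhibitor Timp1 are best known for their link to the blood-brain barrier and to injury.

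The sequence that makes these proteins proteases is the zinc-binding motif, so its coding bases are shown for members on which the values below turn. They were read from GENCODE vM21 transcripts on the GRCm38 build, whereas the submitters' processing notes name mm9 for the counts. Capitals mark the codons of the fixed residues: the leading histidine and glutamate, the middle histidine, the glycine or its replacement, and the closing histidine. In Adam22, Adam23 and Adam11 the stretch is the one aligned to the motif of Adam10, and capitals mark the fixed residues that were kept.
Adam10: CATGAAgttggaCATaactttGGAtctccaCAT
Adam17: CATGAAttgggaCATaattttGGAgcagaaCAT
Mmp9: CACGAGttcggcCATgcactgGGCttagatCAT
Mmp17: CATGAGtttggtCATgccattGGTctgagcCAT
Adamts3: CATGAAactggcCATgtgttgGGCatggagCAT
Adamts14: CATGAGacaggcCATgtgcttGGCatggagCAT
Adamts4: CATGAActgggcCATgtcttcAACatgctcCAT
Adamts8: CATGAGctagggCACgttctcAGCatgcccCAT
Adam22: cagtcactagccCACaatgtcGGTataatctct
Adam23: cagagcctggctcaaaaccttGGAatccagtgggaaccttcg
Adam11: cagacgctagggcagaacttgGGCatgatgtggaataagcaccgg

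The Adam17 stretch lies in exon 12 at chr12:21336732-21336764 on the minus strand. That of Mmp9 lies in exon 8 at chr2:164951133-164951165, and that of Mmp17 in exon 5 at chr5:129596597-129596629, both on the plus strand. The Adam10 stretch is split between exons 9 and 10, with its ends at chr9:70754296-70761585 on the plus strand. Those of Adamts3 (exons 8 and 9, chr5:89707433-89707818, minus strand) and Adamts14 (exons 7 and 8, chr10:61225465-61227123, minus strand) are split as well. So are those of Adamts4 (exons 3 and 4, chr1:171253210-171253915) and Adamts8 (exons 3 and 4, chr9:30952721-30953378), both on the plus strand. The aligned stretches lie in exon 13 of each gene, at chr5:8143064-8143096 on the minus strand for Adam22, and on the plus strand at chr1:63547763-63547804 for Adam23 and chr11:102773613-102773657 for Adam11.

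The motif of 11 residues was found in 40 of the 45 Adam, Adamts and Mmp members. Glycine stood at its 8th residue in 34 of them. Asparagine stood there in 5, namely Adamts1, Adamts4, Adamts9, Adamts15 and Adamts20, and serine in Adamts8, so that 6 of the ADAMTS enzymes grouped below as proteoglycanases carried a replacement. All 12 Mmp and all 18 Adamts members had the motif. Among the 15 Adam members it was found in 10, and Adam11, Adam18, Adam22, Adam23 and Adam32 lacked it. None of the 5 ADAMTS-like members, which are known as secreted matrix proteins without a protease domain, had it.

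Total counts were 18286151 for sham, 15718594 for Vehicle and 18184691 for AGNHW. Levels are given as CPM, counts scaled to a common library total, after scaling by the trimmed mean of M-values (TMM). With 1 library per group there is no spread between animals, so conditions were not tested and p-values are absent. Every difference below is one between 2 libraries, and the 95% intervals cover counting error only. A gene is called higher or lower when the CPM of 2 libraries differed by a factor of 1.5 or more, the mean CPM reached 1 and the interval left out 1. Of the genes with a mean CPM of at least 1, 15558 in all, 46 were members. The ratios of all genes followed transcript length and GC content, and that trend explained 49.96% of the variance of the Vehicle to sham ratio over 9941 well-expressed genes. It explained 28.74% for AGNHW against Vehicle and 40.60% for AGNHW against sham. Each count is therefore given also after the trend was taken off, called corrected, over 15234 genes. Neuronal markers summed to 9948, 10630 and 9977 CPM in sham, Vehicle and AGNHW, so the libraries carried the defining genes of brain. The 7 of 9 pituitary markers that were counted summed to 4.41, 3745 and 4.60 CPM, with Gh, Prl and Ghrhr at 0 in sham and Cga at 0 in AGNHW. Choroid plexus markers (538, 962 and 653 CPM) and red cell markers (52.8, 163 and 65.1 CPM) were also highest in Vehicle. The part of these tissues in the members' values was not tested.

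**Figure D1:**
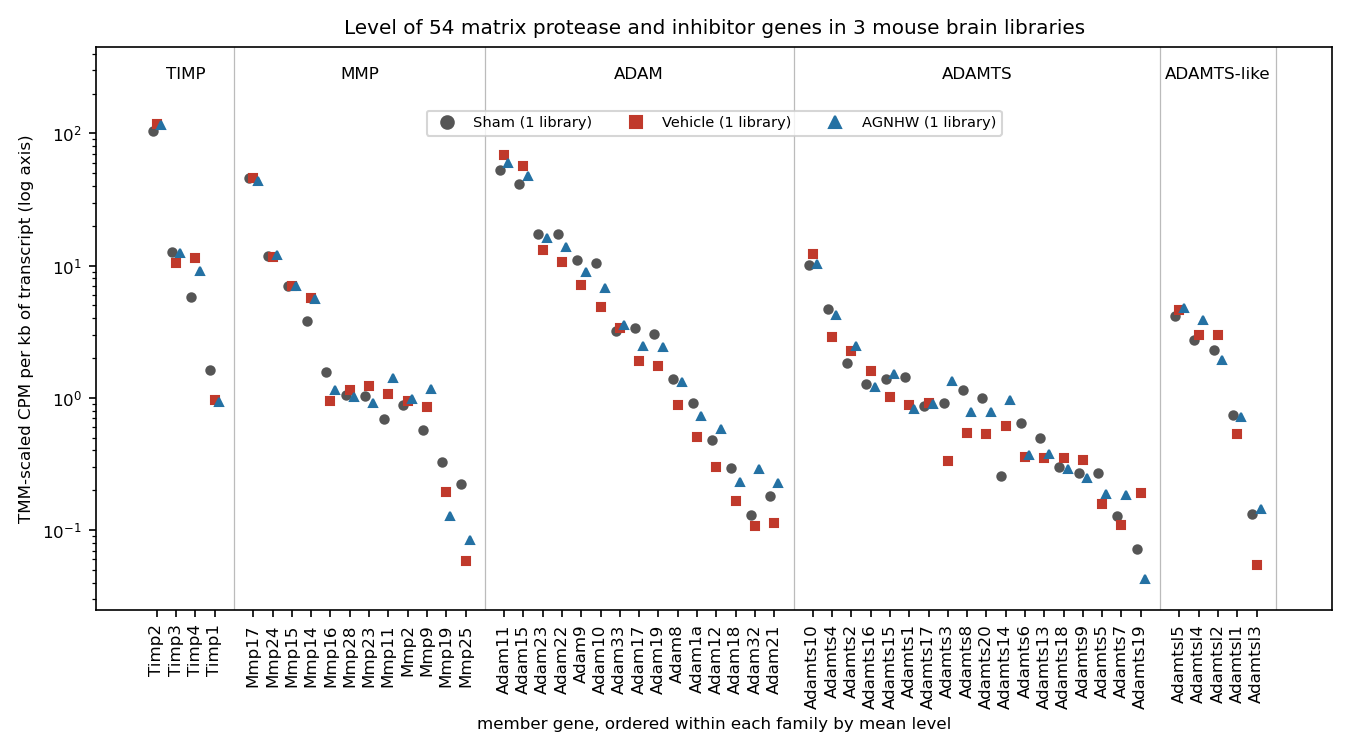
Level of each of the 54 members in the sham, Vehicle and AGNHW libraries, as TMM-scaled CPM per kb of transcript on a log axis, ordered by mean level within each family. Timp2, Adam11, Adam15 and Mmp17 stood highest in all 3 libraries, and 8 members had a mean CPM under 1.

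Few members carried most of the expression. Per kb of transcript, Timp2 had the highest mean level of the 54 genes at 112.6 CPM per kb. It was followed by Adam11 at 60.07, Adam15 at 48.70 and Mmp17 at 44.92 CPM per kb, and Adam23 came next at 15.51. Per kb, Timp2 made up 26.28% of the summed level of all members in sham, 27.70% in Vehicle and 27.70% in AGNHW. The sum of CPM over all members was 1877 in sham, 1916 in Vehicle and 1912 in AGNHW. The ADAM genes gave 43.32%, 41.17% and 41.73% of that sum, the MMP genes 22.09%, 21.79% and 21.19%, and the TIMP genes 25.71%, 28.62% and 28.11%. The totals and the shares of the families thus lay close together in the 3 libraries.

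In Vehicle against sham, 2 of the 46 members were higher and 16 were lower. Over all genes compared, 8.66% were higher and 14.2% lower. After correction 2 members were higher, against 3.81% of all genes, and 7 were lower, against 7.41%. The same 2 genes, Timp4 and Adamts14, were higher both ways. Of the lower genes 6 were lower both ways, 10 only before correction, and Timp1 only after it. The median log2 ratio of the members was -0.02 beside 0.01 for all genes, and -0.14 beside -0.02 after correction.

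In AGNHW against Vehicle, 3 members were higher (Adamts3, Adamts14 and Adam12) and 1 was lower (Adamtsl2), where 4.01% of all genes were higher and 2.56% lower. After correction 5 members were higher, with Adam8 and Adamts4 added, against 3.25% of all genes, and 0 were lower, against 1.57%. The median log2 ratio was 0.11 beside 0.00 for all genes. With plain CPM in place of TMM, 7 members were higher and 0 lower, where 808 of all genes were higher and 309 lower. In AGNHW against sham, 4 members were higher (Adamts14, Mmp9, Mmp11 and Timp4), against 3.32% of all genes, and 3 were lower (Adam10, Adamts1 and Adamts6), against 5.47%. After correction the same 4 were higher, against 2.46%, and 3 were lower (Adamts1, Adamts8 and Timp1), against 3.55%. The median was -0.05 beside 0.00 for all genes. The 3 comparisons share libraries, so a gene that stood apart in 1 library stands apart in 2 of them.

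**Figure D2:**
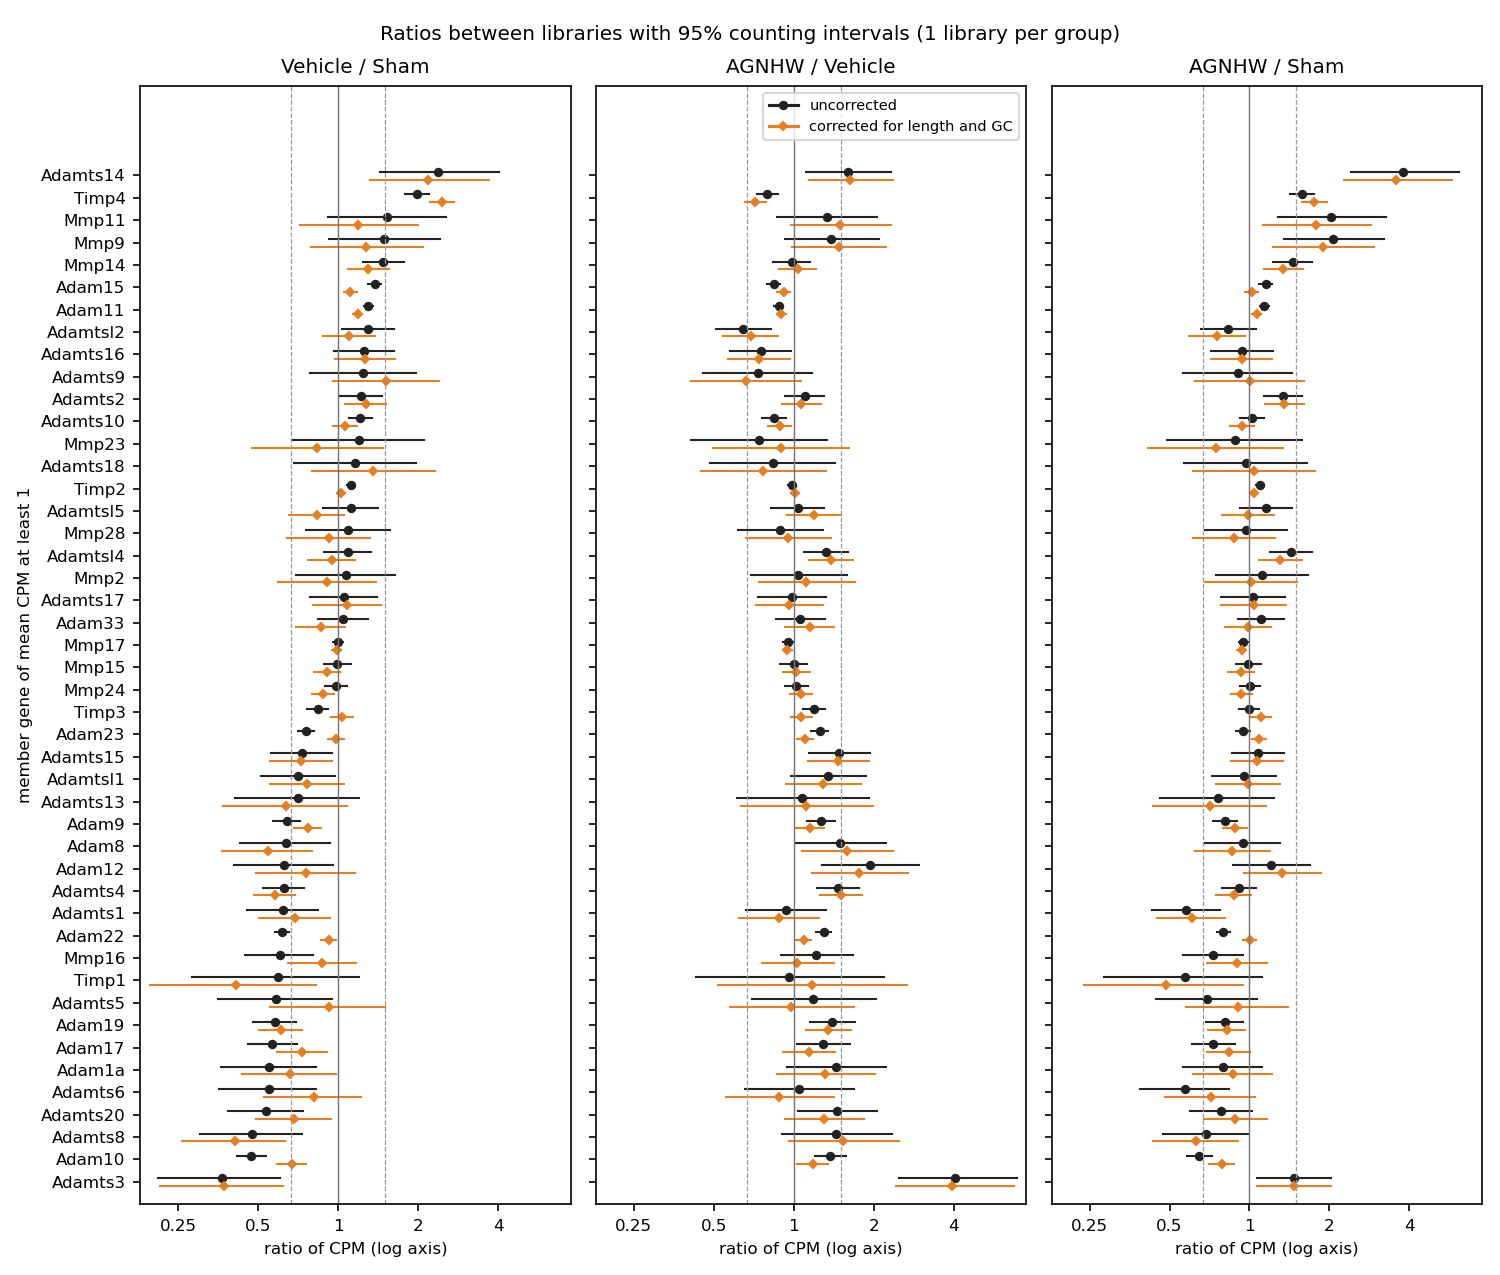
Ratio of TMM-scaled CPM between libraries (log axis) for the 46 members of mean CPM at least 1, with lines for 95% counting intervals, before (black) and after (orange) correction for length and GC. Dashed lines mark ratios of 1.5 either way; in the left panel Timp4 and Adamts14 lie right of them and Adamts3 and Adam10 have the lowest uncorrected ratios.

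Among the inhibitors, Timp4, a TIMP found in brain and heart, differed most clearly. Its level was 31.6 CPM in sham, 62.7 in Vehicle and 49.9 in AGNHW, from 595, 954 and 911 counts. It was 1.98-fold higher in Vehicle than in sham (95% interval 1.789 to 2.201) and 2.45-fold higher after correction (2.21 to 2.72). In AGNHW it was 1.58-fold above sham (1.42 to 1.75) and stood at 0.795 of Vehicle (0.726 to 0.872), short of the limit of 1.5. AGNHW therefore lay between the other libraries. Timp4 lies inside Syn2, a synaptic vesicle gene on the opposite strand, and 90 of its exonic bases overlap those of Syn2. Without a stated strand setting their reads there cannot be told apart. Syn2 itself stood at 452, 416 and 401 CPM. The part of the overlap in the Timp4 values was not tested. The 7 astrocyte markers, from cells that express Timp4, summed to 3655, 3443 and 3485 CPM with none at 0, but they differed among themselves. In Vehicle against sham, Gfap was 1.81-fold and Aqp4 2.88-fold lower, and Aldh1l1 was 1.65-fold higher, and all 3 calls held after correction. Their part in the Timp4 values was not tested.

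Timp2, which both inhibits MMPs and takes part with Mmp14 in activating Mmp2, stood at 389.9, 434.9 and 427.6 CPM. All its ratios lay between 0.983 and 1.12. Timp3, the TIMP that binds to the matrix and inhibits Adam17, stood at 59.5, 49.8 and 59.2 CPM. Its Vehicle to sham ratio was 0.837 (0.763 to 0.919), and 1.03 after correction. Timp1, the inducible TIMP, had only 27, 13 and 15 counts, or 1.44, 0.855 and 0.821 CPM. Its ratio of 0.596 in Vehicle against sham had an interval that includes 1 (0.282 to 1.20). Corrected, it was 2.42-fold lower (1.21 to 5.11). The highest of the 3 levels was that of sham. Over their aligned proteins the 4 TIMPs were 40.1% to 48.9% identical, with Timp2 and Timp4 the closest pair.

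**Figure D3:**
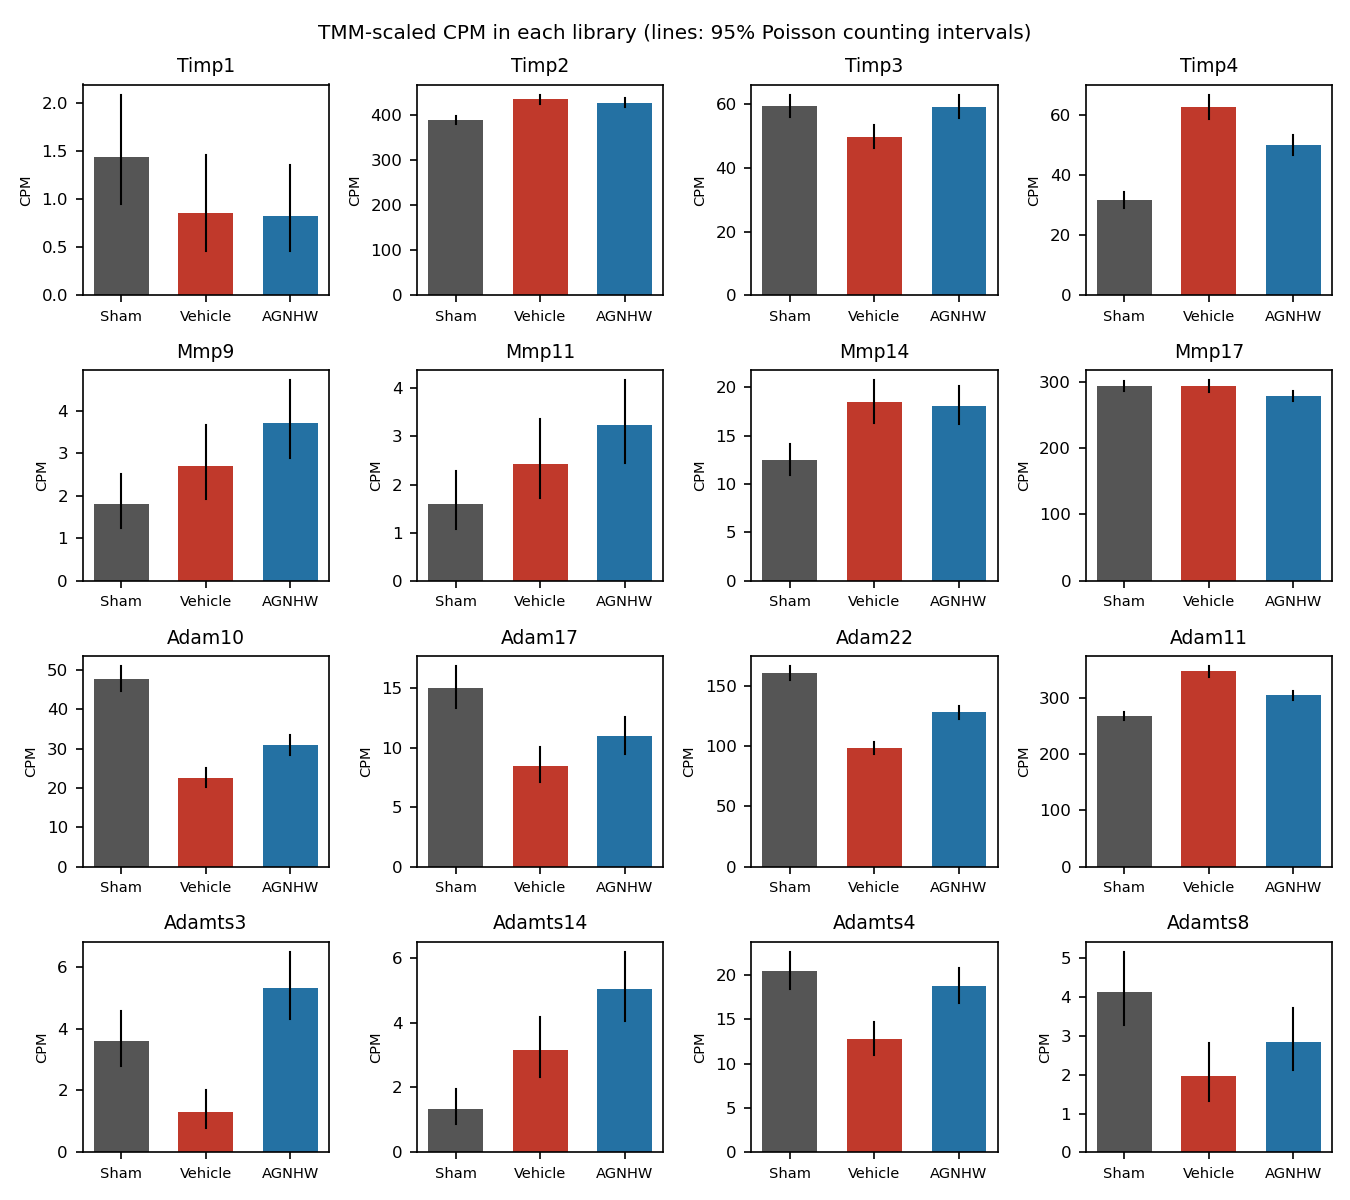
TMM-scaled CPM of 16 members in each library (bars from 0; lines are 95% Poisson counting intervals; axes differ between genes). Timp4 was lowest in sham, Adam10, Adam17, Adam22 and Adamts3 were lowest in Vehicle, and Adamts14, Mmp9 and Mmp11 were highest in AGNHW.

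In Vehicle against sham, 0 of the 10 measured MMPs were higher and 1, Mmp16, was lower. Over all genes, 8.66% were higher and 14.2% lower. The median log2 ratio of these MMPs was 0.10, and -0.13 after correction. Corrected, 0 were called either way, against 3.81% of all genes higher and 7.41% lower. Of the gelatinases, which cut denatured collagen and basement membrane, Mmp9 had 34, 41 and 68 counts, or 1.81, 2.70 and 3.72 CPM. Its ratio of 1.49 in Vehicle against sham (0.924 to 2.42) was within counting error. In AGNHW it was 2.06-fold higher than in sham (1.35 to 3.21), and 1.88-fold after correction. The other gelatinase, Mmp2, had 2.71, 2.89 and 3.01 CPM, and none of its ratios left counting error. The 4 of 9 neutrophil and leukocyte markers that were counted summed to 2.92, 6.51 and 6.41 CPM, with S100a8 at 0 in sham. Their part in the Mmp9 values was not tested.

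Mmp11, called stromelysin 3, stood lowest in sham and highest in AGNHW, at 1.59, 2.43 and 3.23 CPM from 30, 37 and 59 counts. Its AGNHW level was 2.03-fold that of sham (1.29 to 3.26). Of the membrane-type MMPs, Mmp14, the main activator of Mmp2, stood at 12.4 CPM in sham, 18.4 in Vehicle and 18.1 in AGNHW. Its Vehicle to sham ratio of 1.48 (1.24 to 1.77) was beyond counting error but just under the limit, and was 1.30 after correction. Mmp16 stood at 7.87, 4.73 and 5.75 CPM and was 1.66-fold lower in Vehicle than in sham (1.25 to 2.23), but 1.15-fold lower after correction (0.860 to 1.54). The abundant Mmp17, a glycolipid-anchored MMP, held 293.6, 293.3 and 278.5 CPM. Mmp15 at 36.1, 35.9 and 35.8 CPM and Mmp24, an MMP of neurons, at 51.2, 50.3 and 51.4 CPM were as even. The interval of the Mmp24 Vehicle to sham ratio was 0.893 to 1.08. Mmp23 and Mmp28 stood between 1.31 and 3.95 CPM with every interval including 1. Mmp19 (21, 10 and 8 counts) and Mmp25 (19, 4 and 7 counts) had a mean CPM under 1 and were not called. Mmp25 codes for a membrane-type MMP of leukocytes, and both had their most counts in sham.

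Before correction, the ADAM genes were mostly lower in Vehicle. Of the 9 measured ADAMs with the zinc-binding motif, 7 were lower than in sham and 0 were higher. Their median log2 ratio was -0.64. Over all genes, 8.66% were higher and 14.2% lower, and 25.7% of those with under 50% GC were lower. After correction 3 of these ADAMs were lower (Adam19, Adam1a and Adam8), against 7.41% of all genes, and their median was -0.43. Adam10, the main alpha-secretase of neurons, which also cuts Notch receptors, had 898, 342 and 564 counts, or 47.7, 22.5 and 30.9 CPM. It was 2.12-fold lower in Vehicle than in sham (1.87 to 2.41), and AGNHW lay between them at 1.55-fold below sham (1.39 to 1.72). After correction the Vehicle difference was 1.496-fold (1.32 to 1.70), just short of the limit.

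Adam17, which releases tumour necrosis factor and ligands of the epidermal growth factor receptor, showed the same order at 14.99, 8.48 and 10.95 CPM. It was 1.77-fold lower in Vehicle than in sham (1.43 to 2.19), and 1.37-fold after correction (1.11 to 1.70). Its exons overlap those of Iah1 by 311 bases. Adam9, another sheddase, stood at 44.7, 28.7 and 36.3 CPM and was 1.56-fold lower (1.39 to 1.75), or 1.30-fold after correction. Adam19, which cuts neuregulin, stood at 19.2, 11.1 and 15.5 CPM, 1.73-fold lower in Vehicle (1.44 to 2.09) and 1.65-fold after correction (1.37 to 1.99). For Adam10, Adam17, Adam9 and Adam19 alike, Vehicle was lowest, sham highest and AGNHW between. All genes with under 50% GC, as Adam10, Adam17 and Adam9 have, showed that order in their median log2 ratios. The medians were -0.29 in Vehicle against sham, 0.14 in AGNHW against Vehicle and -0.15 in AGNHW against sham. For genes with more GC, such as Adam19 at 53.09%, they were 0.23, -0.10 and 0.11.

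Adam8, an ADAM of leukocytes and activated microglia, stood at 4.36, 2.76 and 4.11 CPM. It was 1.58-fold lower in Vehicle than in sham (1.08 to 2.35) and, corrected, 1.84-fold lower (1.25 to 2.73). The 7 microglial markers summed to 284, 245 and 261 CPM with none at 0. Among them P2ry12 was 3.25-fold and Cx3cr1 2.41-fold lower in Vehicle than in sham, both also after correction, and the other 5 were not called. Their part in the Adam8 values was not tested. Adam12, a metalloprotease of muscle and mesenchyme, stood at 3.67, 2.30 and 4.43 CPM. It was 1.93-fold higher in AGNHW than in Vehicle (1.28 to 2.95), and 1.75-fold after correction. In Vehicle it was 1.59-fold lower than in sham (1.05 to 2.47), but 1.32-fold after correction (0.866 to 2.04) and no longer called. Both ratios use the Vehicle library. Adam1a is uncertain because its exons overlap those of Mapkapk5 and Tmem116. It stood at 4.41, 2.43 and 3.504 CPM. The remaining measured ADAMs with the motif, Adam15 and Adam33, were not called; both were named after their values were seen. The abundant Adam15 stood at 123, 169 and 142 CPM, with a Vehicle to sham ratio of 1.37 (1.30 to 1.45), and 1.11 after correction. Adam33 stood at 10.2, 10.7 and 11.3 CPM, with a ratio of 1.04 (0.842 to 1.29).

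The 3 measured ADAMs without the motif are neuronal proteins known as receptors for the secreted LGI proteins at synapses. Adam22 stood at 160.5, 98.6 and 127.9 CPM and was 1.63-fold lower in Vehicle than in sham (1.53 to 1.73). After correction the difference was 1.09-fold (1.02 to 1.16), so the call was lost although 3020, 1499 and 2336 counts lay behind it. Adam23 stood at 110.8, 83.7 and 104.6 CPM, with a ratio of 0.755 (0.704 to 0.810), and 0.985 after correction. Adam11 stood highest in Vehicle, at 267.7, 347.1 and 304.6 CPM from 5037, 5280 and 5562 counts, with a ratio of 1.30. That ratio was 1.19 after correction, under the limit of 1.5. The stretches printed above show how these genes lack the motif: of its histidine and glutamate residues Adam22 keeps 1, and Adam23 and Adam11 keep 0.

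The procollagen N-propeptidases Adamts2, Adamts3 and Adamts14 trim the amino-terminal propeptides of fibrillar collagens, and Adamts3 also activates the lymphatic growth factor VEGF-C. Among the members of mean CPM at least 1, Adamts3 had the lowest uncorrected Vehicle to sham ratio and Adamts14 the highest. Adamts3 had 68, 20 and 97 counts, or 3.61, 1.32 and 5.31 CPM. It was 2.75-fold lower in Vehicle than in sham (1.65 to 4.78) and 4.04-fold higher in AGNHW than in Vehicle (2.48 to 6.90). Correction left these at 2.69-fold and 3.95-fold. Both rest on the 20 counts of the Vehicle library, and AGNHW against sham gave a ratio of 1.47 (1.07 to 2.04).

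Adamts14 had 25, 48 and 92 counts, or 1.33, 3.16 and 5.04 CPM, so sham was lowest and AGNHW highest. Vehicle was 2.38-fold above sham (1.44 to 4.02), AGNHW 1.60-fold above Vehicle (1.11 to 2.31) and AGNHW 3.79-fold above sham (2.42 to 6.16). It was higher in all 3 comparisons with and without correction. The third enzyme, Adamts2, outside the rule for named genes and added as the last of its class, was at 13.4, 16.4 and 17.96 CPM, with ratios of 1.22 in Vehicle and 1.34 in AGNHW against sham. The 7 meningeal fibroblast markers, from cells that make fibrillar collagen, summed to 75.8, 73.8 and 83.3 CPM with none at 0. In Vehicle against sham, Lum and Col3a1 were lower and Slc6a13 was higher, and Col3a1 alone was called after correction. Their part in these values was not tested. In a bulk library, fewer cells of a type and less RNA per cell cannot be told apart.

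The proteoglycanase ADAMTS enzymes cut aggrecan, brevican and versican, the large proteoglycans of brain matrix and perineuronal nets. Of the 7 measured, 5 were lower in Vehicle than in sham and 0 were higher, against 14.2% and 8.66% of all genes. The median log2 ratio of the 7 was -0.67. After correction 2 were lower (Adamts4 and Adamts8), against 7.41% of all genes, and the median was -0.50. Adamts4, the highest of them per kb and in brain a gene of oligodendrocytes, had 385, 194 and 342 counts, or 20.5, 12.8 and 18.7 CPM. It was 1.60-fold lower in Vehicle than in sham (1.35 to 1.92), and 1.73-fold after correction (1.45 to 2.07). Its AGNHW to Vehicle ratio was 1.47 (1.23 to 1.76), and 1.51 after correction. The 6 oligodendrocyte markers summed to 7057, 9238 and 8604 CPM with none at 0, and Mbp made up most of each sum. In Vehicle against sham, Mobp was 1.60-fold higher before correction only, and Mbp was higher after correction only. Their part in the Adamts4 values was not tested.

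Adamts8 stood at 4.15, 1.97 and 2.85 CPM and was 2.10-fold lower in Vehicle than in sham (1.36 to 3.32), or 2.45-fold after correction (1.59 to 3.86). Adamts1, an inflammation-induced versican protease, stood at 7.02, 4.34 and 4.05 CPM, with Vehicle and AGNHW alike and both below sham. AGNHW was 1.73-fold below sham (1.29 to 2.33), and 1.65-fold after correction. Adamts20 (6.86, 3.68 and 5.37 CPM) and Adamts5 (2.92, 1.71 and 2.03 CPM) were 1.86-fold and 1.71-fold lower in Vehicle than in sham. Corrected, their differences were 1.47-fold and 1.09-fold, under the limit. Adamts9 stood at 2.18, 2.70 and 1.97 CPM with every interval including 1.

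Among the 6 other measured ADAMTS genes, Adamts6 alone was called. It stood at 4.20, 2.30 and 2.41 CPM, 1.82-fold lower in Vehicle than in sham (1.21 to 2.80) and 1.74-fold lower in AGNHW than in sham (1.19 to 2.58). Neither call held after correction. Over all genes, 14.2% were lower in Vehicle than in sham before correction, and 5.47% were lower in AGNHW than in sham. Adamts13, the protease of von Willebrand factor and so a brake on clot growth, stood at 2.23, 1.58 and 1.70 CPM with intervals that include 1. Of the ADAMTS-like genes, Adamtsl2, a microfibril-associated protein, stood at 8.34, 10.8 and 6.95 CPM. It was 1.55-fold lower in AGNHW than in Vehicle (1.22 to 1.97), and 1.46-fold after correction.

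**Figure D4:**
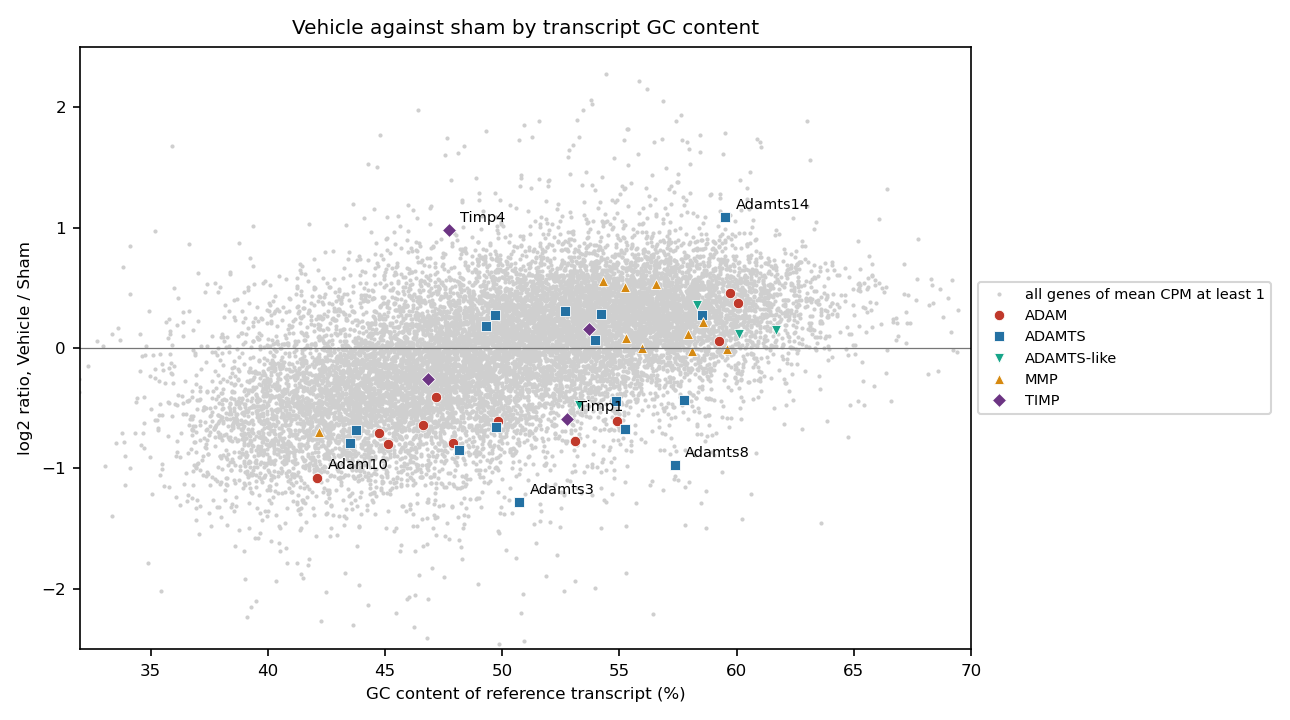
Log2 ratio of Vehicle to sham against transcript GC content, for all genes of mean CPM at least 1 with a reference transcript (grey) and for the members by family; 45 of the 15234 genes lie outside the axes. Members of low GC content, such as Adam10, lie mostly below 0, whereas Timp4 lies above and Adamts8 below the genes of like GC content.

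Before correction, the lower calls in Vehicle were found mainly among members of low GC content. Of 16 members with under 50% GC, 11 were lower than in sham, with a median log2 ratio of -0.67. Among all genes with under 50% GC, 25.7% were lower and 3.09% were higher. Their median was -0.29. Of the 30 members with more GC, 5 were lower and the median was 0.10, where 3.67% of all such genes were lower, 13.8% were higher and the median was 0.23. After correction, 1 of the 16 and 6 of the 30 were lower, against 7.41% of all genes of any GC content. Across the 46 members the log2 ratio and GC content had a Pearson r of 0.55, and these points come from the same pair of libraries. After correction r was 0.07, but the correction takes off a GC trend fitted on ratios of these libraries, so a fall was built in. Timp4 was thus higher in Vehicle although its GC content was under 50%, and Adamts8 and Adamts4 were lower although theirs was above it.

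Genes that work with the members were taken from 4 lists. Of 18 counted regulators and partners, which include furin-type activating proteases and the tetraspanins and iRhoms that carry Adam10 and Adam17, 0 were higher and 0 lower in Vehicle against sham. The shares of all genes to set beside each list in this comparison were 8.66% higher and 14.2% lower. The median log2 ratio of the 18 was 0.15. In AGNHW against Vehicle the shares to set beside each list were 4.01% higher and 2.56% lower. For AGNHW against sham they were 3.32% higher and 5.47% lower. In AGNHW against sham 1 was lower, Reck, a membrane inhibitor of MMPs, at 12.9, 9.67 and 8.27 CPM (1.56-fold, 1.26 to 1.92), and it was not called after correction.

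The plasminogen system activates several MMPs. Of its genes, Anxa2 and the urokinase receptor gene Plaur were higher in Vehicle than in sham. Anxa2 stood at 9.73, 17.1 and 13.6 CPM and was 1.76-fold higher (1.45 to 2.14), and Plaur stood at 0.957, 1.91 and 1.75 CPM and was 1.99-fold higher (1.07 to 3.81). Corrected, the ratios were 1.33 and 1.48, under the limit, and neither gene was called in the comparisons with AGNHW.

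Among 15 brain matrix substrates, the link protein gene Hapln2 (36.7, 65.5 and 51.5 CPM) was higher in Vehicle than in sham. Hapln1 (7.39, 4.27 and 5.37 CPM) and the nidogen gene Nid2 (2.60, 1.32 and 2.30 CPM) were lower, and of these 3 Nid2 alone was called after correction. Acan, which codes for aggrecan, the substrate of Adamts4, stood at 4.52, 4.34 and 6.95 CPM. It was 1.60-fold higher in AGNHW than in Vehicle (1.18 to 2.19) and 1.54-fold higher than in sham (1.16 to 2.05). Nid2 was also higher in AGNHW than in Vehicle, and Nid1 was 1.67-fold lower in AGNHW than in sham (1.30 to 2.16).

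Among 18 counted ADAM substrates and ligands, 1 was higher and 4 were lower in Vehicle than in sham. Over all genes, 8.66% were higher and 14.2% lower. Lgi3, a ligand of the Adam22 family, was the higher one at 158.5, 252.3 and 218.6 CPM (1.59-fold, 1.52 to 1.67), and at a corrected ratio of 1.33 it was no longer called. Tgfa, whose growth factor Adam17 releases, was 1.62-fold lower (1.39 to 1.88), and 2 of the 4, Notch1 and Tgfa, were lower after correction too. The other lower ones, named after their values were seen, were Nrg1 and Nrcam. In both comparisons with AGNHW, 0 of these 18 were called. Over all genes, 4.01% were higher and 2.56% lower in AGNHW against Vehicle, and 3.32% and 5.47% against sham.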

How the data were processed

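The authors deposited raw read counts per gene symbol for 3 brain libraries. The submitters' processing notes name HTSeq 0.6.0, TopHat2 2.0.12, Bowtie2 2.2.3 and the build mm9, and the sources used here give neither settings nor strandedness. No listed gene had fewer than 21 counts in all, so rarer genes had been left out. Members and gene lists were chosen with earlier results of these data known. Named were every Timp and Mmp member, every member called in a comparison, well-known ADAM and ADAMTS genes, and the called genes of each list, of which 1 is not reported here.

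Counts were scaled by TMM over the 3 libraries (edgeR 4.0.16, R 4.3.3; factors 1.03, 0.968 and 1.00 for sham, Vehicle and AGNHW). Ratio intervals were exact conditional binomial (Clopper-Pearson) at 95%, in Python 3.11.15 with scipy 1.17.1. The intervals may be too narrow, as reads that carry no molecular identifiers do not each stand for 1 molecule. Log2 ratios had a prior count of 5. Length and GC content came from GENCODE vM21 transcripts, matched for 97.92% of the genes compared and all 54 members. A spline trend on both was fitted over genes of at least 10 CPM and taken off. The motif was first searched with glycine alone, and asparagine and serine were added after that search. The scripts were tested on simulated data.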

Additional observations from a re-analysis of the deposited data

How the results depend on the processing

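With 1 library per group, leaving out a replicate or a count model with a dispersion was not possible. No paired analysis was possible because each group has 1 library. Counts of called members and medians stayed within 1.5 times or 0.1 of the values given, except as follows. In Vehicle against sham, a fold limit of 2 left 1 higher and 3 lower. Of all genes it left 307 higher and 711 lower, from 1348 and 2207 at 1.5. The correction left 7 members lower, beside 1129 of all genes, with a median log2 ratio of -0.14 for the members. Without a minimum level the members' median was -0.20. In AGNHW against Vehicle, plain CPM gave 7 higher and 0 lower, beside 808 and 309 of all genes. A limit of 2 gave 1 higher and 0 lower, beside 175 and 116 of all genes. The correction gave 5 higher and 0 lower, beside 495 and 239. Without a minimum level 2 members were lower, beside 530 of all genes, and the members' median was 0.23. In AGNHW against sham, 5 were lower without a minimum level, beside 1023 of all genes, and 0 with a limit of 2, beside 192. A higher limit or the absence of a minimum changes which genes can be called; the cause of the other shifts was not tested. Scaling with DESeq2 1.42.0 size factors, or with TMM from only the 2 libraries compared, an alternative chosen after seeing the data, changed none of these counts beyond 1.5 times. No ratio of the 37 named members that was called changed sign in any alternative. Among the named members, depth limits those with under 70 counts in each library. They were Timp1, Mmp2, Mmp9, Mmp11, Mmp19, Mmp23, Mmp25, Mmp28, Adamts5, Adamts9 and Adamts13. Depth also limits members with under 70 counts in some libraries but not all. These were Adam12, Adam1a, Adam8, Adamts1, Adamts3, Adamts6, Adamts8, Adamts14 and Adamts20. Every member called higher in AGNHW against Vehicle before correction was among them.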
